A study of Mus musculus with 7 samples.

Results

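A set of 10 genes of C-type lectin receptors were followed in mouse dendritic cells: Clec4d, Clec4e, Clec4n, Clec5a, Clec7a, Clec9a, Clec4a2, Clec12a, Clec10a and Cd209a. They were picked by symbol from the 28666 genes of the deposited table, which held all 10, and all 10 passed the filter on low counts. The cells were bone marrow-derived dendritic cells (BMDCs), which are marrow cells grown for 7 days with the cytokines GM-CSF and IL-4. They shared a Transwell system with the mouse colon carcinoma line MC38 under DMSO or the glutamine antagonist DON (5 μM, 24 h), and were flow-sorted into the 2 groups compared here, immature (n = 3 libraries) and mature (n = 4 libraries). For this co-culture the study's results text gives 0.6 mM glutamine with DMSO and 2 mM with DON. The sample labels give only the maturation state and a replicate number. The study's text places the sorting after DON treatment and its figure legend names DMSO or DON, but the labels give no treatment for any library. The study makes a general statement that its data come from independent experiments, and elsewhere it defines mature dendritic cells by CD80 and CD86, but neither is stated for these libraries. P-values therefore measure the spread between these libraries, which may be technical in part. Polyadenylated RNA was sequenced, and total counts were 61296014, 57359581 and 67973086 in immature replicates 1, 2 and 3, and 62285010, 61817255, 54846746 and 60481142 in mature replicates 1, 2, 3 and 4. The mature libraries were not alike: replicates 2, 3 and 4 carried cardiac muscle transcripts (680 to 801 CPM, counts scaled to library size, over 7 marker genes) that were at 26.7 CPM in replicate 1, and replicate 3 differed most from the others over all genes.

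C-type lectin receptors are surface proteins that bind sugars, glycolipids or other ligands through a C-type lectin fold, and dendritic cells and macrophages use them to recognise fungi, mycobacteria and damaged cells and to take up antigen. Some signal through an adaptor with an ITAM, a tyrosine motif that recruits the kinase Syk, some carry a related motif (hemITAM) in their own tail, and some carry an inhibitory ITIM that recruits phosphatases. Syk then acts through Card9, Bcl10 and Malt1 on NF-kappa B. Dendritic cells are known to lower many uptake receptors as they mature.

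In mature cells, 9 of the 10 receptor genes fell, none rose, and Clec4e alone did not pass the criteria, which asked for a log2 fold change of 1 or more in size together with an adjusted p below 0.05 (edgeR's quasi-likelihood test). Of all 17461 genes tested, 9.95% fell by these criteria, 13.2% rose and 23.1% changed in either direction. The median log2 fold change (mature over immature) was -2.17 over the 10 receptor genes and 0.055 over all genes tested. In 9 of the 10, no mature library reached the lowest immature library, and 52.1% of all genes tested had groups that did not overlap. Cd209a passed the filter only through the immature group, so it had to differ. The receptors together, summed in FPKM (fragments per kilobase of gene and per unit of library depth), reached 901, 947 and 914 in the immature replicates and 179, 222, 248 and 252 in the mature replicates. This summed level was 921 ± 23.95 (SD, n = 3) in immature and 225 ± 33.5 (SD, n = 4) in mature cells, or 4.09-fold lower in mature cells. In bulk RNA, fewer cells that express a gene and less of its RNA in each cell cannot be told apart.

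**Figure D1:**
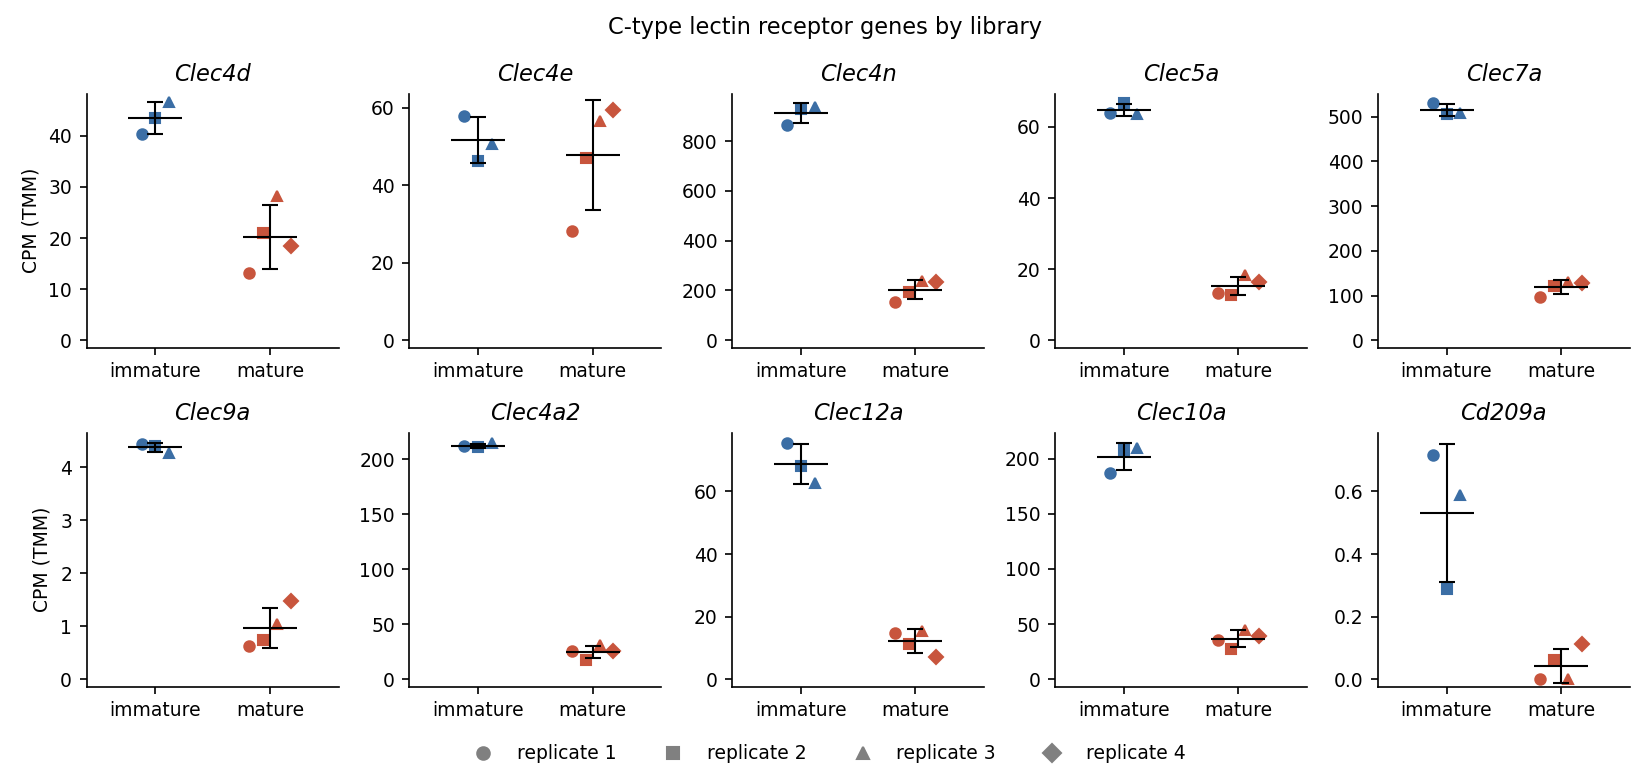
Each panel plots the level of a receptor gene in CPM (counts scaled to library size by TMM) for the 3 immature and 4 mature libraries; the symbol shape is the replicate number, and bars are the mean ± SD. All panels but that of Clec4e show mature libraries wholly below the immature ones, and the Cd209a panel spans less than 1 CPM.

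Levels between genes were compared per length, in FPKM. In immature cells Clec4n came first (564 ± 23.1, SD, n = 3), before Clec7a (171 ± 6.62), and these 2 genes made up 79.8% to 80.0% of the summed level. Clec4a2 (63.7 ± 0.911) and Clec10a (61.1 ± 3.58) followed and overlapped each other. Below them stood Clec4d (23.9 ± 1.36) and Clec5a (14.8 ± 0.682). Clec12a (10.9 ± 1.19) and Clec4e (9.13 ± 1.05) overlapped, and Clec9a (1.16 ± 0.0462) and Cd209a (0.29 ± 0.12) closed the order. In mature cells Clec4n (135 ± 23.2, SD, n = 4) and Clec7a (42.8 ± 4.99) still led, with 77.6% to 80.6% of the sum. Behind them, Clec10a (11.9 ± 1.97), Clec4d (11.8 ± 3.21), Clec4e (9.06 ± 2.56) and Clec4a2 (8.04 ± 1.43) formed a run in which neighbours overlapped. Clec5a (3.72 ± 0.473), Clec12a (2.07 ± 0.612), Clec9a (0.27 ± 0.105) and Cd209a (0.025 ± 0.03) did not overlap their neighbours. By mean FPKM over all genes of the table, Clec4n was at rank 60 in immature and 335 in mature cells, and Clec4a2 went from rank 680 to 4860. Clec4e held nearly the same place, at rank 4365 and 4449.

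The activating receptors that signal through an ITAM adaptor were taken first. Clec4n encodes Dectin-2, a receptor for fungal mannans (GRCm38 chr6:123229843-123247021, plus strand). It was counted at 866, 930 and 939 CPM in the immature replicates and 153, 192, 238 and 233 CPM in the mature replicates. The groups lay far apart, with mature replicate 1 lowest. The mean fell from 912 ± 39.7 to 204 ± 39.8 CPM (SD), a log2 fold change of -2.16 (SE 0.15, edgeR adjusted p = 7.1e-06).

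Clec5a encodes MDL-1, which pairs with the adaptors DAP12 and DAP10 and is known as a receptor for flaviviruses (chr6:40574894-40585821, minus strand). Its levels were 64.0, 66.7 and 63.7 CPM in immature and 13.3, 12.9, 18.3 and 16.3 CPM in mature replicates. The immature libraries were nearly level and the mature ones all lower, and the log2 fold change was -2.09 (SE 0.13, edgeR adjusted p = 4.0e-06).

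Clec4d encodes MCL, which binds mycobacterial glycolipid and partners with Mincle (chr6:123262111-123275265, plus strand). Its levels were 40.3, 43.6 and 46.6 CPM in immature and 13.1, 20.9, 28.2 and 18.4 CPM in mature replicates. The groups did not overlap, though mature replicate 3 was well above the level of mature replicate 1. The log2 fold change was -1.11 (SE 0.22, edgeR adjusted p = 0.0032), close to the fold criterion. It was -0.95 without mature replicate 1 and -0.999 (just short of the criterion) with upper-quartile normalization, and Clec4d then no longer passed.

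Clec4e encodes Mincle, the receptor for mycobacterial cord factor and for a ribonucleoprotein of dead cells (chr6:123281789-123289870, minus strand). It was counted at 57.9, 46.3 and 50.7 CPM in immature and 28.1, 47.0, 56.6 and 59.5 CPM in mature replicates. Mature replicate 1 was below all other libraries, and mature replicates 2, 3 and 4 lay among or above the immature ones. Its log2 fold change was -0.11 (SE 0.23, 95% confidence interval -0.64 to 0.42, edgeR adjusted p = 0.73), and the sign turned without mature replicate 1 (0.075). This interval does not show that Clec4e was equal in both groups. Only its lower edge overlaps the interval of Clec4d (-1.61 to -0.61), and such overlap is not a comparison of the genes.

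**Figure D2:**
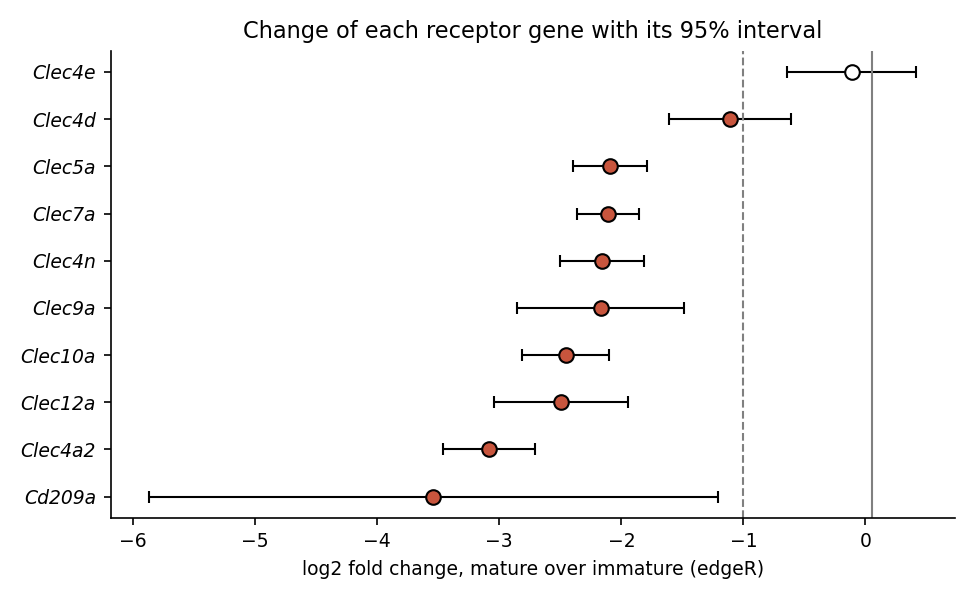
Points are the log2 fold changes (mature over immature) of the 10 receptor genes with 95% confidence intervals; filled points passed the criteria, the dashed line marks the fold criterion and the solid line the median of all genes tested (0.055). Clec4e sits beside the solid line, Clec4d near the dashed line at -1.11, and the other 8 at -2.09 or lower.

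Of the receptors with a hemITAM, Clec7a encodes Dectin-1, the receptor for fungal beta-glucan (chr6:129461591-129472779, minus strand). Its levels were 530, 505 and 508 CPM in immature and 97.1, 122, 131 and 128 CPM in mature replicates. Mature cells kept 23.2% of the immature level, and the log2 fold change was -2.11 (SE 0.11, edgeR adjusted p = 1.5e-06). This was the smallest standard error among the 10 genes.

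Clec9a encodes DNGR-1, which binds actin filaments of dead cells and marks cross-presenting conventional dendritic cells (chr6:129408862-129424763, plus strand). It was scarce, at 4.45, 4.40 and 4.28 CPM in immature and 0.637, 0.741, 1.04 and 1.47 CPM in mature replicates. The groups did not overlap, and the log2 fold change was -2.17 (SE 0.30, edgeR adjusted p = 0.00041). Counts ran from 245 to 276 in immature and 42 to 92 in mature libraries. Its annotated span overlaps Clec1b by 474 bases on the same strand, and 4.02% of its 50-base stretches also occur in Clec1b transcripts. On the log2(FPKM + 1) scale, which compresses low genes, its change was -0.77. Of 6 other conventional DC 1 markers, Irf8 (2.11), the most abundant, Batf3 (1.36) and Itgae (1.89) rose and Tlr3 (-1.52) fell. Cadm1 (-0.67) and Xcr1 (-0.064) did not pass.

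The ITIM-bearing receptors came next. Clec4a2 encodes DCIR, an inhibitory receptor of dendritic cells (chr6:123106428-123143999, plus strand), and was counted at 211, 210 and 214 CPM in immature and 25.8, 17.9, 31.1 and 25.4 CPM in mature replicates. The immature libraries differed by 0.936% (coefficient of variation), the tightest of the 10 genes, and mature cells kept 11.8% of their level. The log2 fold change was -3.08 (SE 0.17, edgeR adjusted p = 1.6e-06), and 0.424% of all genes tested fell further. In its transcripts 6.83% of 50-base stretches also occur in other genes, most of all in nearby Clec4a4 (3.85%), so some counts could be shared with that gene. Clec4a4 itself had 24 to 38 counts in immature and 0 to 7 in mature libraries. Clec4a2 had 11711 to 13829 in immature and 1186 to 1699 in mature libraries.

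Clec12a encodes an inhibitory receptor that recognises uric acid crystals (chr6:129342691-129364416, plus strand). Its levels were 75.4, 68.1 and 62.8 CPM in immature and 14.7, 11.4, 15.5 and 7.12 CPM in mature replicates. The groups did not overlap and mature replicate 4 was lowest, the only receptor gene for which it was. The log2 fold change was -2.50 (SE 0.24, edgeR adjusted p = 4.6e-05).

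The last pair take up glycoproteins without an ITAM or ITIM. Clec10a encodes MGL1, a galactose-type lectin (chr11:70156197-70170834, plus strand), at 187, 208 and 210 CPM in immature and 35.6, 27.1, 44.7 and 39.6 CPM in mature replicates. Its log2 fold change was -2.46 (SE 0.16, edgeR adjusted p = 4.3e-06), with no overlap. In its transcripts 8.49% of 50-base stretches also occur in Mgl2, its near copy, which fell from 2066 ± 69.1 to 335 ± 45.3 CPM (SD), so the authors' counting could have moved reads between these genes. Cd209a, a mouse homologue of the human adhesion receptor DC-SIGN (chr8:3743397-3748984, minus strand), had 42, 16 and 38 counts in immature and 0, 4, 0 and 7 counts in mature replicates. Among low counts in the table, 4 was the most frequent (6956 times) and 8 (3153) exceeded its neighbours, as a sequenced fragment worth about 4 counts would give. Counts of 1, 2 and 3 were frequent too (5745, 4549 and 3473 times), which such a fragment alone would not give. On either reading the mature libraries held few Cd209a fragments. Its log2 fold change was -3.54 (SE 1.02, 95% confidence interval -5.87 to -1.21, edgeR adjusted p = 0.020), and the adjusted p was 0.079 without immature replicate 1 and 0.068 without immature replicate 3.

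Among mature libraries, replicate 1 was lowest for 6 of the 10 genes (with a tie at 0 for Cd209a) and replicate 3 highest for 7. The share of all genes with their lowest or highest value in these libraries was not counted, so these counts do not set the receptors apart. The coefficient of variation was 12.9% to 38.5% in mature cells for the 9 genes other than Cd209a, against 0.936% to 11.3% in immature cells. Mature replicate 3 also stood apart over all genes, with a median chi-square per gene of 17.7 to 25.6 against the other mature libraries, where other pairs of a group had 3.83 to 5.26. With mature replicates 1 and 3 both left out, an alternative chosen after seeing the data, 9 receptor genes still fell.

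In all, 9 tested genes lay in the Dectin-2 gene cluster on chromosome 6 (within chr6:122921848-123289870), and 7 of them fell while none rose, against 9.95% and 13.2% of all genes tested. These 7 include 3 of the receptors already described, and 4 of the 5 other tested genes, among them Clec4a4, which passed the filter only through the immature group and so had to differ. From the far end, Clec4a1 had a log2 fold change of -1.95 and Clec4a3 of -2.56. Clec4a4 (-3.32, few counts), Clec4b1 (-3.29) and Clec4a2 (-3.08) stood in the middle. Clec4b2 (-2.68, edgeR adjusted p = 0.078) did not pass. Toward the other end the values were -2.16 for Clec4n, -1.11 for Clec4d and -0.11 for Clec4e, with 95% confidence intervals of -2.51 to -1.82, -1.61 to -0.61 and -0.64 to 0.42. In the Dectin-1 cluster, 16 genes were tested, of which 4 fell and 2 rose. Of the 4, Clec12a, Clec9a and Clec7a are receptors already described, and among the 13 other tested genes Clec1b (-2.23) was the 1 that fell, a share near the 9.95% of all genes tested. Those that rose stood at the ends of the window, Clec2d (1.08, a ligand of an NK cell receptor) and Klrk1 (3.59, the receptor NKG2D), and Gabarapl1, an autophagy gene within the window, was at 0.15 (edgeR adjusted p = 0.13).

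**Figure D3:**
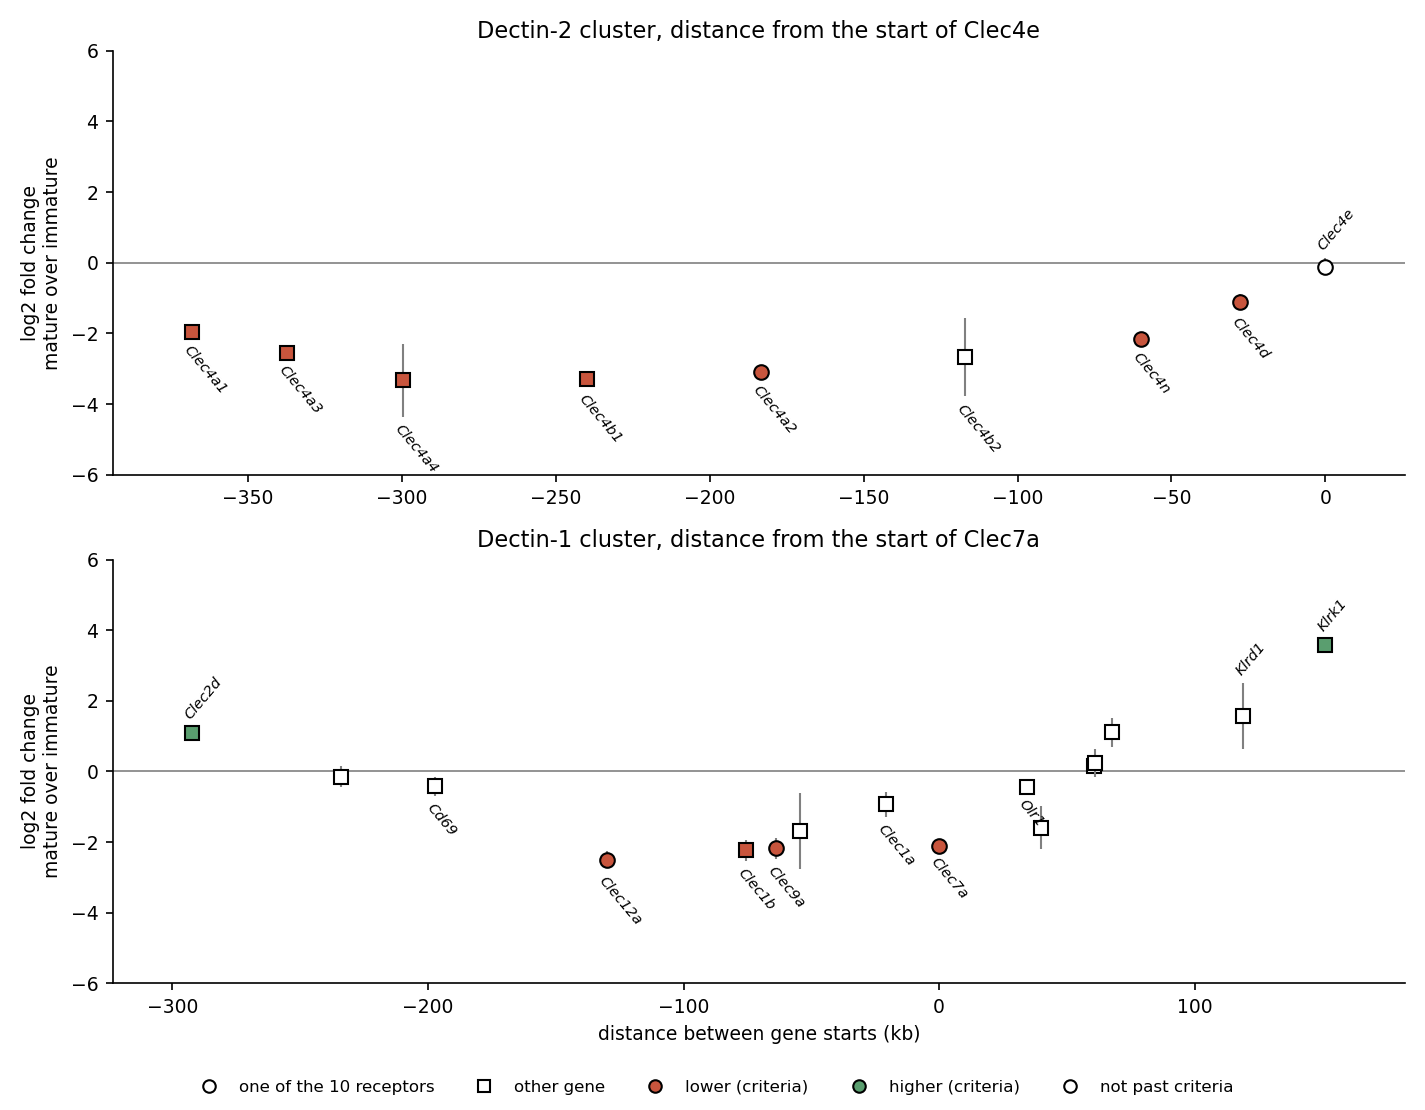
Each point is a tested gene, placed by the distance in kb of its start from that of Clec4e (top) or Clec7a (bottom), with its log2 fold change ± SE on the vertical axis; circles are the 7 of the 10 receptors that lie in these windows, and only lectin-domain genes are labelled. In the top panel 7 of 9 genes are marked lower and Clec4e lies at -0.11, and in the bottom panel 4 genes are marked lower between 2 that are marked higher.

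For the last 3 genes of the Dectin-2 cluster, counts were also set against each other within each library, a ratio that no library scaling can change. These 3 pairs were picked for their fold changes, so the ratios restate those fold changes and are given as a description. An exact permutation test gave p = 0.057 for each, the smallest value it can give with these group sizes. Nothing is drawn from it, as the pairs were picked on the same values. The log2 ratio of Clec4e to Clec4d was 0.52, 0.087 and 0.12 in immature and 1.10, 1.17, 1.01 and 1.69 in mature replicates. All mature libraries lay above all immature ones, and the mean went from 0.24 ± 0.24 to 1.24 ± 0.31 (SD), a difference of 0.997. For Clec4e to Clec4n the mean went from -4.15 ± 0.22 to -2.13 ± 0.21, and for Clec4d to Clec4n from -4.39 ± 0.051 to -3.37 ± 0.27.

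**Figure D4:**
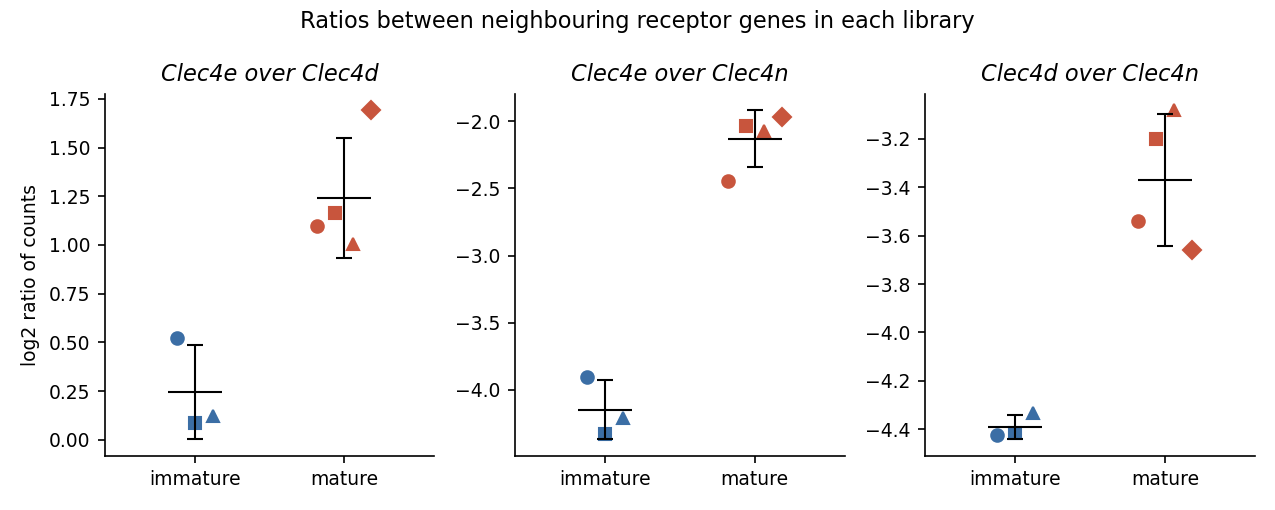
Points are log2 ratios of counts in each library for 3 pairs of neighbouring genes, with the mean ± SD per group; symbol shape is the replicate number, and the vertical axes do not start at 0. In all 3 panels the mature libraries lie above the immature ones, by 0.997, 2.02 and 1.02 on average.

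Promoter sequence was available for 8 of the 10 genes from RefSeq (GRCm38.p6), and Clec4n and Clec10a were not matched. The 250 bases before the RefSeq transcript start are shown for Clec4d and Clec4e, neighbours with unequal fold changes, for Clec4a2, the largest fall among the well-counted genes, and for Clec7a, the most abundant receptor with a match. They are read 5′ to 3′ on the strand of the gene, chr6:123261857-123262106 (plus) for Clec4d, chr6:123289872-123290121 (minus) for Clec4e, chr6:123122440-123122689 (plus) for Clec4a2 and chr6:129472780-129473029 (minus) for Clec7a. The RefSeq starts of Clec4a2, Clec12a and Clec5a lie inside the gene spans of the deposited table. The stretches of Clec4a2 and Clec12a are within those spans and not before them, and that of Clec5a overlaps its span in part. Capitals mark matches, on either strand, to GAGGAAG (PU.1-like), TGANTCA (AP-1), GGGNNTTCC (NF-kappa B) or TTNNGNAA (C/EBP), and overlapping matches run together.
Clec4d: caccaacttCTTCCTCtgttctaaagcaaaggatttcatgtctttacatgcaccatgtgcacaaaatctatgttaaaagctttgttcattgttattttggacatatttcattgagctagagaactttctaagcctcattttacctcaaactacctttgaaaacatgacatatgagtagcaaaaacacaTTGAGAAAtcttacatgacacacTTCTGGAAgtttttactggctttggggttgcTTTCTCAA
Clec4e: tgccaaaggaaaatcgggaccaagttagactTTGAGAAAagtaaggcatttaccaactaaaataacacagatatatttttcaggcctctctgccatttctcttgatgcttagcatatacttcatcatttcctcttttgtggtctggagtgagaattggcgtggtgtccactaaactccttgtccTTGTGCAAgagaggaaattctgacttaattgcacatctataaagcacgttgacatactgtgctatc
Clec4a2: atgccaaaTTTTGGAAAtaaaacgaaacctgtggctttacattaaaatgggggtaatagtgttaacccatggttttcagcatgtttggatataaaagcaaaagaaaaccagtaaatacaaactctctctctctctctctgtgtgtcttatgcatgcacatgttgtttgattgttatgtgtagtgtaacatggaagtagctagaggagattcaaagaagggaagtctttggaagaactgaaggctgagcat
Clec7a: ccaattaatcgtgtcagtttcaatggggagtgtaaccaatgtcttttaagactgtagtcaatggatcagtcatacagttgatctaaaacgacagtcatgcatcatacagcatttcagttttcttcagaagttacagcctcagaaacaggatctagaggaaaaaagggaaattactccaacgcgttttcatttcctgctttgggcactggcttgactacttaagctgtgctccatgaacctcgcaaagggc
Clec4d held 1 PU.1-like and 3 C/EBP matches, Clec4e 2 C/EBP matches, Clec4a2 2 overlapping C/EBP matches and Clec7a none. Of the promoters not shown, Clec5a held 2 PU.1-like and 1 C/EBP match, Clec12a 1 PU.1-like, 1 AP-1 and 2 C/EBP matches, Cd209a 1 C/EBP match and Clec9a none. No match to GGGNNTTCC was found in the 8. Other spellings of an NF-kappa B site were not searched, so this does not show that such sites are absent. Over 32851 promoters, 10.6% held the PU.1-like letters, 6.75% the AP-1, 4.98% the NF-kappa B and 36.8% the C/EBP letters. A match describes these letters and is not shown to be a bound site.

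Of the 3 adaptors that carry the signal of the activating receptors, Fcer1g and Tyrobp fell as well. Fcer1g, the ITAM adaptor of Dectin-2, MCL and Mincle, was at 304, 320 and 328 CPM in immature and 93.7, 95.6, 153 and 107 CPM in mature replicates. Its log2 fold change was -1.50 (SE 0.17, edgeR adjusted p = 0.00012). Tyrobp, the DAP12 adaptor of MDL-1, was at 207, 225 and 245 CPM in immature and 83.3, 73.0, 128 and 86.8 CPM in mature replicates, with a log2 fold change of -1.28 (SE 0.18, edgeR adjusted p = 0.00046). For both adaptors the groups did not overlap and mature replicate 3 was the highest mature library. Hcst, the DAP10 adaptor, was scarce (2.44 ± 0.411 and 1.33 ± 0.539 CPM, SD) and did not pass (log2 fold change -0.87, edgeR adjusted p = 0.060).

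Downstream, Syk was at 527 ± 18.7 CPM in immature and 672 ± 61.3 CPM in mature cells, and its log2 fold change of 0.35 (edgeR adjusted p = 0.014) was below the fold criterion. Card9 went from 95.0 ± 5.31 to 65.8 ± 9.40 CPM (-0.53, edgeR adjusted p = 0.0052), also below it. Bcl10 was at 61.1 ± 1.88 and 63.2 ± 8.86 CPM (0.048, edgeR adjusted p = 0.76). Malt1, the protease of the Card9 complex, rose from 151 ± 14.2 to 422 ± 84.4 CPM (1.49, edgeR adjusted p = 0.00014). The phosphatases that ITIM receptors recruit stayed under the fold criterion, with log2 fold changes of -0.69 for Ptpn6 (SHP-1), -0.34 for Ptpn11 (SHP-2) and -0.098 for Inpp5d (SHIP-1). Thus Fcer1g and Tyrobp passed in the opposite direction to Malt1, and Syk, Card9 and Bcl10 did not pass.

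**Figure D5:**
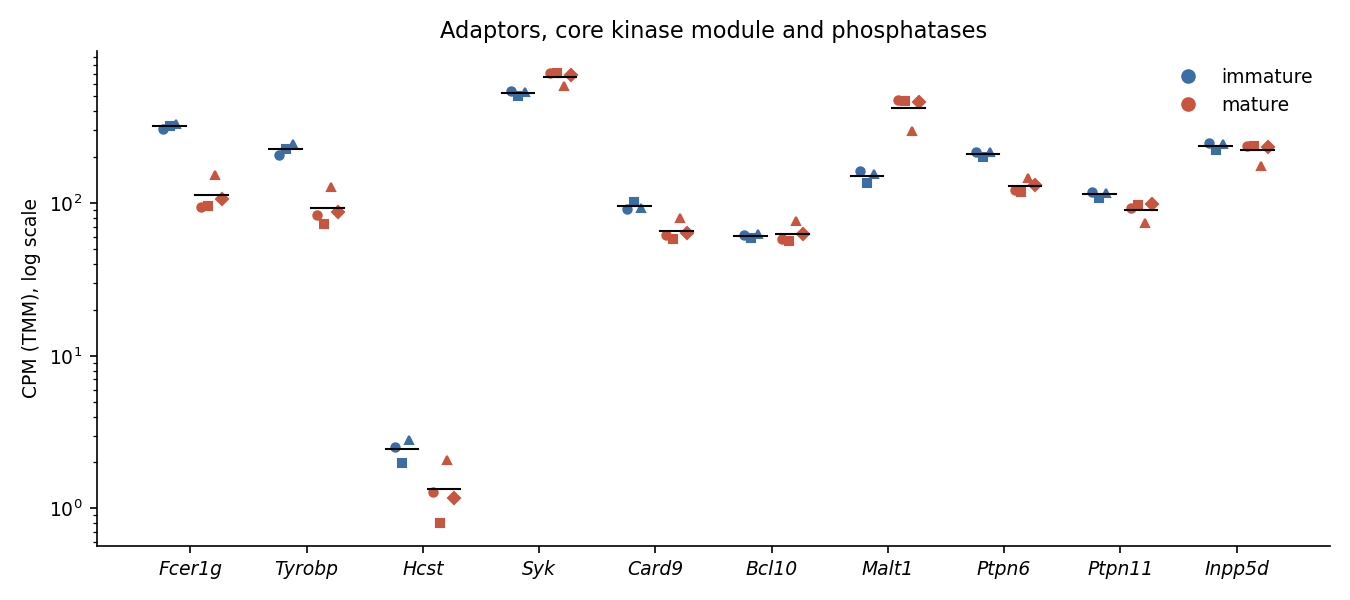
Each point is a library's level in CPM on a log axis, with bars at the group mean, for the 3 adaptors, Syk, the Card9, Bcl10 and Malt1 complex and 3 phosphatases. Fcer1g and Tyrobp lie lower in mature libraries, Malt1 lies higher, and the Bcl10 groups overlap.

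Over 38 tested genes of a list of adaptors and signalling proteins, 4 rose, 6 fell and 28 did not pass, or 26.3% called against 23.1% of all genes tested, with a median log2 fold change of -0.18. The Src-family kinases Fgr (-2.75) and Lyn (-1.34), the docking protein Dok2 (-2.02) and the phospholipase Plcg2 (-1.43) fell with the 2 adaptors. Cblb, a ubiquitin ligase known to restrain Dectin signalling, rose from 38.8 ± 2.57 to 188 ± 34.2 CPM (2.28). The kinase Fyn (1.63) and the ubiquitin ligase Traf6 (1.14) rose with it.

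In the deposited annotation, 108 genes belong to the KEGG pathway of C-type lectin receptor signalling, of which 5 are among the 10 receptors and 17 in the signalling list above. Of the 99 tested, 19 rose and 14 fell (33.3% called against 23.1%), with a median log2 fold change of 0.0043. The 14 include receptors already described, such as Clec4n and Cd209a, so this share is not separate from the receptor result. With their values already seen, a few were picked to be named here. Those that rose include the NF-kappa B subunits Relb (2.63) and Nfkb2 (2.34), the chemokine Ccl22 (3.28) and the cytokine subunit Il12b (2.87). The inflammasome sensor Nlrp3 (-2.01) and the transcription factor Egr2 (-1.62) fell. Among cytokines that such receptors are known to induce, Il1b rose (1.36, edgeR adjusted p = 0.012), while Il6 was at 15.8 ± 1.78 and 15.8 ± 3.51 CPM and Tnf at 14.7 ± 5.46 and 8.86 ± 0.998 CPM (-0.73).

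Other genes with a C-type lectin domain moved in both directions. Of 50 listed, 46 were in the table under these symbols and 37 were tested. Of these 15 fell, 7 rose and 15 did not pass, so 59.5% were called against 23.1% of all genes, with a median log2 fold change of -0.90. Of those that rose, Clec14a, Klri2 and Clec3b had 0 to 3 counts in every immature library, and of those that fell, Clec4a4 was near 0 in mature cells, so these 4 had to differ to pass the filter. With a filter of at least 1 CPM in 3 libraries, 14 fell and 4 rose. The mannose receptor Mrc1 fell from 158 ± 15.2 to 14.7 ± 1.16 CPM (-3.43, edgeR adjusted p = 1.8e-07), and Cd93 (-3.00), Mgl2 (-2.62), Klrb1b (-2.78), Clec4b1 and Clec4a3 fell by similar steps. Klrk1 rose from 1.66 ± 0.268 to 20.03 ± 1.91 CPM, where the NK cell markers Nkg7 and Eomes were each under 0.5 CPM on average in both groups.

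Markers of cell state and of other cell types were read in the same libraries. All 6 maturation markers (Cd80, Cd86, Cd40, Cd83, Ccr7 and Fscn1) were higher in the libraries labelled mature, summing to 411, 418 and 405 CPM in immature and 4405, 4376, 5167 and 4512 CPM in mature replicates, with Ccr7 most abundant. Of 6 dendritic cell markers, Zbtb46 and Flt3 rose and none fell, and Itgax (CD11c) was abundant in both groups at 1386 and 1041 CPM. Their sum, mostly Cd74, ranged from 8899 to 13956 CPM. Cd80 and Cd86 encode proteins that may have set the sort, in which case their rise is fixed by it, and the other 4 markers rose as well. In the immature libraries the more restricted dendritic cell markers were low, with Flt3 at 0.438 CPM and Zbtb46 at 25.6 CPM on average, and Cd74 and Itgax are shared with macrophages, so these markers do not set the immature libraries apart from macrophages.

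Macrophage markers moved with the receptors. Of these 8 of 9 fell, all but Marco, and their sum was 1558, 1550 and 1562 CPM in immature and 324, 322, 375 and 339 CPM in mature replicates, with Cd68 most abundant (425 and 79.3 CPM). Of 5 monocyte markers Ccr2, Csf1r and Fcgr3 fell and Ly6c2 and Vcan did not pass, and the sum was 2581, 2377 and 2581 CPM against 601, 568, 591 and 627 CPM, with Fcgr3 most abundant. None of these markers was at 0. Receptors such as Clec7a and Clec12a are also known from macrophages and monocytes, and the part of such cells in the falls was not tested. Of 4 conventional DC 2 markers Itgam (-2.85), the most abundant, and Sirpa (-1.38) fell. Irf4, at 207 CPM in immature and 410 CPM in mature cells, was just under the fold criterion (0.99, edgeR adjusted p = 7.8e-05), and Cd1d1 (0.10) did not pass.

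The remaining lists were low or moved otherwise. Of 4 plasmacytoid DC markers Pacsin1 rose, and the sum ranged from 85.7 to 235 CPM, mostly Bst2. Neutrophil markers summed to 12.7 to 27.7 CPM over the 7 libraries, mostly Cxcr2, with S100a8 the 1 that fell. Kit rose and carried the mast cell and basophil list (5.05 to 42.1 CPM), and Siglecf fell and carried the eosinophil list (13.1 to 91.0 CPM), where Epx was at 0 in every library. No B, T or NK cell list passed 1.3 CPM in any library. Epithelial markers, as MC38 cells could carry, summed to 59.2 to 77.3 CPM, mostly Cdh1, with Epcam the 1 that rose. All 7 cardiac muscle markers rose, with sums of 4.87, 5.52 and 5.45 CPM in immature and 26.7, 680, 801 and 704 CPM in mature replicates, Myh6 being the most abundant. Mature replicate 1, with the least of this muscle RNA among mature libraries, was also lowest for 6 of the 10 receptors (with a tie at 0 for Cd209a). The share of all genes lowest in that library was not counted, so this count does not set the receptors apart. The part of muscle RNA in the falls was not tested.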

How the data were processed

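RNA of flow-sorted immature (3 libraries) and mature BMDCs (4 libraries) was analysed, grouped by sample title. For each gene, the table deposited by the authors holds unnormalized whole-number counts of every library. The authors also deposited FPKM values, scaled for gene length and depth. The labels' processing notes name cutadapt 1.9, HISAT2 2.2.1, StringTie 2.1.6, edgeR, DESeq2 and build mm9, but 87.24% of the 28588 genes shared with GENCODE M21 had its GRCm38 coordinates, so coordinates are given as GRCm38. Libraries were made with a strand-marking kit, and the strand setting of the counting is not given in the sources used here.

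Counts were tested in R 4.3.3 with edgeR 4.0.16 (filterByExpr, TMM, quasi-likelihood test, Benjamini-Hochberg over 17461 genes). Standard errors were derived from this test, as the absolute log2 fold change divided by the square root of its F statistic. The 95% confidence intervals were built from them with a t quantile. CPM values use TMM library sizes. FPKM summed to 381707 in mature replicate 3 and to 327714 to 337706 in the other libraries. Same-numbered libraries did not deviate together (r = 0.029, -0.0011 and 0.014), so numbers were not taken as pairs. Every pair of libraries within a group differed by more than sampling noise.

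The receptors, the 3 further gene lists (other lectin-domain genes, signalling genes, KEGG pathway) and the marker lists were chosen with earlier results of these data known. All 10 receptors are named. From the first 2 lists, the named genes are the 8 largest changes past the criteria with a mean FPKM of at least 1 in the higher group, plus the adaptors, the Syk to Malt1 module and the phosphatases, and 1 gene that the rule would name is not reported here. Traf6, Clec2d, the other genes of the 2 clusters and the KEGG genes were named after their values were seen. Alternatives were DESeq2 1.42.0, upper-quartile scaling, other filters, limma 3.58.1 on log2(FPKM + 1) and log2(FPKM + 0.1), a replicate block, adjusted p alone and omission of each library. Counts divided by 4 and omission of mature replicates 1 and 3 were added after seeing the data. Shared stretches were counted over GENCODE transcripts. A planned search of protein sequences was not run.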

Additional observations from a re-analysis of the deposited data

How the results depend on the processing

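The log2 fold changes of the 10 receptors were below 0 under every alternative that gave them a value, except that Clec4e turned to 0.075 without mature replicate 1 and to 0.063 without mature replicates 1 and 3. Between 6 and 9 receptor genes passed, none of them higher. Genes passing numbered 4037, and 1768 by limma on log2(FPKM + 1), 2561 on log2(FPKM + 0.1), 1716 on log2(FPKM + 1) without a filter and 8053 by adjusted p alone in edgeR. Other lectin-domain genes went from 22 to 12 in each limma fit, which tested fewer of them with a filter. By adjusted p alone, signalling genes went from 10 to 27 and KEGG genes from 33 to 64. Clec4d dropped out at -0.999 under upper-quartile scaling and at -0.99 in both limma fits on log2(FPKM + 1), and omitting a library gave -1.29 to -0.95. Clec9a (-0.77 in both) and, without a filter, Cd209a (-0.33) dropped out there by the pseudocount. Leaving out a library gave -0.23 to 0.075 for Clec4e, -4.51 to -3.12 for Cd209a (-3.27 and -3.46 without immature replicates 1 and 3, where it did not pass), 3646 to 4052 genes and 8 to 9 receptors. Cd209a was not tested under stricter filters or with counts divided by 4. The median of all genes moved from 0.055 to 0.16 under upper-quartile scaling, 0.18 with DESeq2 and 0.17 in edgeR without a filter, where that of the receptors was -2.06, -2.14 and -2.15. With a replicate block, 3616 genes passed, 9 receptors among them, and Clec4d was at -1.13, Clec4e at -0.28 and Cd209a at -4.76; the numbers pair no libraries by any label. Depth limits Cd209a and, less so, Clec9a, and counting error alone is covered by their counts.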

Other observations

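Among the other lectin-domain genes, some were named only after their values were seen. Ly75 and Cd72 rose, against the direction of the receptors, although more genes of that list fell (15) than rose (7), and 3 of the 7 had to differ to pass the filter. With at least 1 CPM in 3 libraries, 14 fell and 4 rose. Ly75, which encodes the uptake receptor DEC-205, was at 74.1, 72.8 and 75.6 CPM in immature and 263, 276, 164 and 270 CPM in mature replicates, a log2 fold change of 1.72 (SE 0.18, edgeR adjusted p = 7.6e-05). All 4 mature libraries lay above the immature ones, and mature replicate 3 was the lowest of them. Cd72, an ITIM-bearing lectin best known from B cells, rose from 5.62 ± 0.281 to 26.2 ± 4.79 CPM (2.22), while the B cell marker Cd79a was under 0.5 CPM on average in both groups. The scavenger lectin Colec12 (-1.76), the asialoglycoprotein receptor gene Asgr2 (-1.64) and thrombomodulin, Thbd (-1.60), fell. Cd302 was at -0.90 and Olr1, the receptor for oxidised LDL next to Clec7a, at -0.43, both under the fold criterion.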
